A study of Homo sapiens with 24 samples.

Results

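The zinc finger gene clusters of chromosome 19 are 4 stretches of GRCh38 in which Krüppel-associated box (KRAB) zinc finger genes lie side by side. They were taken by position alone, as all bins of 1000 bp in the deposited table that start within the stretches, so that no measured value entered the choice. The stretches are 19p12 (chr19:19800001-24100000), 19q13.12 (chr19:36500001-38000000), 19q13.31 (chr19:43500001-44600000) and 19q13.41-43 (chr19:52000001-58600000). The table held 13373 bins of them, out of 2835235 bins in all. These were 4300 bins of 19p12, 1459 of 19q13.12, 1076 of 19q13.31 and 6538 of 19q13.41-43. A further 127 positions of the 1000 bp grid had no bin in the table, 41 in 19q13.12, 24 in 19q13.31 and 62 in 19q13.41-43. The gene annotation placed 333 protein-coding genes in them, of which 189 were zinc finger genes: 35 of 38 in 19p12, 24 of 28 in 19q13.12, 23 of 38 in 19q13.31 and 107 of 229 in 19q13.41-43.

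Oxidation of guanine gives 8-oxoguanine (OG), which pairs with adenine as well as cytosine. The glycosylase OGG1 removes OG opposite cytosine, and MUTYH removes adenine that was inserted opposite OG. KRAB zinc finger proteins bind DNA through tandem zinc fingers and recruit the co-repressor TRIM28 through the KRAB domain, mostly to silence transposable elements. Their genes arose by repeated local duplication, and the fingers are usually encoded in the last coding exon. OG was mapped by OG-seq, in which OG is tagged with biotin, tagged DNA fragments are pulled down on streptavidin beads, and the pulled-down DNA is sequenced beside input DNA.

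HAP1, a near-haploid human cell line from a chronic myeloid leukemia, was compared in 4 genotypes: wildtype (WT), MUTYH-/, OGG1-/ and MUTYH-/ X OGG1-/, called DKO. The knockouts were made with CRISPR-Cas9, and all cells were grown in IMDM with serum and antibiotics and were otherwise untreated. Each genotype was represented by 3 table columns (n = 3), and per the labels 2 of the 3 libraries came from 1 clone and 1 from a second clone. Both DKO clones were derived from an OGG1-/ clone. The columns could not be assigned to clones or experiments, so the p values measure the spread between columns, which may be partly technical, and clone and genotype cannot be told apart. The deposited value of a bin is the number of OG reads left after scaled input reads were subtracted, and is below 0 where the scaled input is larger. Each column was divided by its mean over all bins. A relative OG signal of 1 is therefore the average bin, and values are not absolute amounts of OG. Depth was 21.0 to 40.2 OG reads and 27.7 to 35.8 reads of input for a bin in a column, so counting error is large in a single bin and small in a cluster.

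Sequence set the clusters apart from the rest of their chromosome. The GC content of their bins was 44.3 %, against 49.7 % on the rest of chromosome 19 and 40.9 % in the rest of the genome. It rose from 41.1 % in 19p12 over 42.0 % in 19q13.12 and 43.6 % in 19q13.31 to 47.0 % in 19q13.41-43. A G-quadruplex (G4) motif, searched on both strands as 4 runs of at least 3 G with 1 to 7 bases between runs, was present in 11.9 % of the cluster bins. The share was 25.1 % on the rest of chromosome 19 and 9.68 % in the rest of the genome. Within the clusters it was 5.67 % in 19p12, 6.65 % in 19q13.12, 14.4 % in 19q13.31 and 16.8 % in 19q13.41-43.

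The repeated coding unit of the clusters is shown because it recurs in the exons that are compared with promoters and other bins. A zinc finger exon is taken here as the last coding exon of the canonical transcript of a zinc finger gene. In the 189 such exons (median length 1550 bases), the most frequent run of 30 bases occurred 156 times in 33 exons. It is written on the coding strand, and capitals mark TGT, a codon of cysteine, the residue that holds the zinc ion. The most frequent run of 12 bases occurred 553 times in 103 exons, and is part of the sequence that encodes the linker between neighbouring fingers.
Run of 30 bases: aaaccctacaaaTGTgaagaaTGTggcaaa
Run of 12 bases: TCATACTGGAGA
The run of 12 bases stood in 276 copies in all 35 exons of 19p12, in 31 copies in 12 of the 24 exons of 19q13.12, in 5 copies in 2 of the 23 exons of 19q13.31 and in 241 copies in 54 of the 107 exons of 19q13.41-43. ZNF208 of 19p12 had the most, with 21 copies, followed by ZNF845 of 19q13.41-43 with 19. On either strand, the run was found in 1.82 % of the cluster bins and 43.8 % of the zinc finger exon bins, against 0.104 % of the bins on the rest of chromosome 19. The 243 cluster bins that hold it had a GC content of 38.5 % and a relative OG signal of 0.877 ± 0.0608 (SD over 12 columns). The other 13130 cluster bins had 44.4 % GC and a signal of 1.12 ± 0.0498.

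Along the chromosome, the OG signal of the clusters lay between that of the rest of chromosome 19 and that of the genome. In the clusters together, the relative OG signal was 1.14, 1.08 and 1.09 in the columns of WT, 1.20, 1.09 and 1.05 in MUTYH-/, 1.09, 1.19 and 1.10 in OGG1-/, and 1.11, 1.18 and 1.09 in DKO. The rest of chromosome 19 had 1.51, 1.45 and 1.43 in WT, 1.74, 1.42 and 1.32 in MUTYH-/, 1.47, 1.73 and 1.52 in OGG1-/, and 1.23, 1.59 and 1.37 in DKO. Each column was thus lower in the clusters than on the rest of its chromosome. The difference was -0.364 ± 0.114 (SD, 12 of 12 columns below; exact two-sided sign-flip permutation test over columns, p = 0.000488, the smallest that 12 columns allow). Against the rest of the genome the clusters were higher by 0.119 ± 0.0489 (12 of 12 columns above, same exact permutation test, p = 0.000488). The columns did not respond alike to GC content. The first MUTYH-/ column, the second OGG1-/ column and the second DKO column were the highest of their genotypes on the rest of chromosome 19 and in 19q13.41-43, the parts richest in GC.

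**Figure D1:**
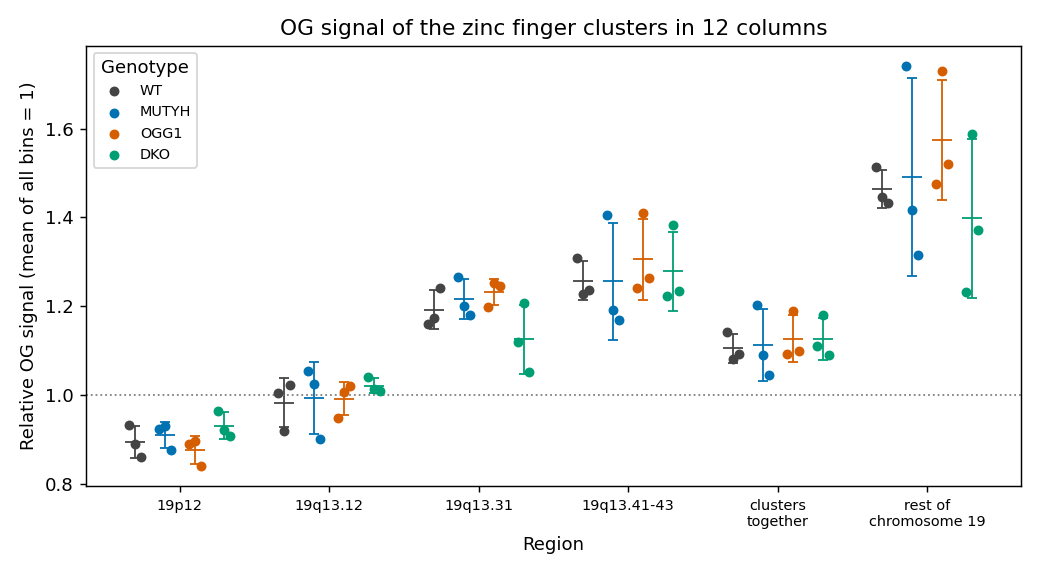
Relative OG signal (y axis, linear, mean of all bins = 1, axis not starting at 0) in each zinc finger cluster, in the clusters together and on the rest of chromosome 19 (x axis). Points are the 3 columns of a genotype and bars are mean ± SD; the signal is below 1 in 19p12 in all 12 columns and above 1 in 19q13.31 and 19q13.41-43, and the genotypes overlap.

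The clusters differed among themselves, with 19p12 the lowest in every column. In 19p12, where ZNF91 and ZNF93 lie, the signal was 0.933, 0.891 and 0.862 in WT, 0.925, 0.931 and 0.876 in MUTYH-/, 0.891, 0.898 and 0.840 in OGG1-/, and 0.965, 0.921 and 0.908 in DKO. All 12 columns were below the average bin. In 19q13.12 it was 1.00, 0.920 and 1.02 in WT, 1.05, 1.02 and 0.901 in MUTYH-/, 0.949, 1.01 and 1.02 in OGG1-/, and 1.04, 1.01 and 1.01 in DKO, which is close to the average bin.
In 19q13.31 the values were 1.16, 1.17 and 1.24 in WT, 1.27, 1.20 and 1.18 in MUTYH-/, 1.20, 1.25 and 1.24 in OGG1-/, and 1.12, 1.21 and 1.05 in DKO. In 19q13.41-43 they were 1.31, 1.23 and 1.24 in WT, 1.41, 1.19 and 1.17 in MUTYH-/, 1.24, 1.41 and 1.26 in OGG1-/, and 1.22, 1.38 and 1.23 in DKO. Both were above 1 in every column, and 19q13.41-43 was the higher in 9 of 12.
In the deposited values all 6 pairs of clusters differed by the sign-flip test. In 5 pairs the lower cluster was lower in 12 of 12 columns (adjusted p = 0.000586, Benjamini-Hochberg over the 6 pairs, exact permutation test). The largest difference was that of 19p12 and 19q13.41-43 (-0.371 ± 0.0840) and the smallest of these 5 that of 19p12 and 19q13.12 (-0.0942 ± 0.0475). Between 19q13.31 and 19q13.41-43 the difference was -0.0831 ± 0.0757 (adjusted p = 0.00488, exact permutation test). Without the first column of each genotype it was -0.0703 (adjusted p = 0.0781, exact permutation test), and once the value expected from GC content was subtracted it turned to 0.0762 (adjusted p = 0.00586, exact permutation test). By the OG to input read ratio relative to bins of equal GC content, none of the 6 pairs passed the test (adjusted p = 0.836 in each, exact permutation test). Without the outer 200 kb of each cluster, the difference of 19p12 and 19q13.12 was -0.0360 (adjusted p = 0.0435), that of 19p12 and 19q13.31 -0.165 (adjusted p = 0.000732), that of 19q13.12 and 19q13.31 -0.129 (adjusted p = 0.00117) and that of 19q13.31 and 19q13.41-43 -0.209 (adjusted p = 0.000732), all by the exact permutation test.

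Because OG-seq signal depends on GC content, each cluster bin was compared with bins of the same GC content to 1 % outside the clusters. The clusters together differed from these bins by -0.0746 ± 0.0263 (12 of 12 columns below, adjusted p = 0.000814 over 5 tests, exact sign-flip permutation test). The gap was -0.134 ± 0.0321 in 19p12 and -0.0924 ± 0.0412 in 19q13.12, each in 12 of 12 columns (adjusted p = 0.000814 in both, exact permutation test). It was -0.0482 ± 0.0329 in 19q13.41-43, below in 11 of 12 columns (adjusted p = 0.00183, exact permutation test). 19q13.31 differed in direction, with 0.0281 ± 0.0489, above in 10 of 12 columns, and did not pass the test (adjusted p = 0.0742, exact permutation test). It passed without the third column of each genotype (0.0276, adjusted p = 0.0391, exact permutation test). Against GC classes of chromosome 19 alone, 19q13.31 was at 0.00535 ± 0.0573 (6 of 12 columns above, adjusted p = 0.749, exact permutation test) and 19q13.41-43 at -0.0919 ± 0.0512 (11 of 12 columns below, adjusted p = 0.00122, exact permutation test).

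Input reads differed in the same regions. The input reads of the clusters were 0.936 ± 0.00786 times those of bins of equal GC content (SD over 12 columns), with 0.878 ± 0.0128 in 19p12, 0.912 ± 0.0125 in 19q13.12, 0.964 ± 0.00890 in 19q13.41-43 and 1.02 ± 0.0161 in 19q13.31. The order of the clusters was the same as that of their signal gaps. When the same value was taken per input read and set against bins of equal GC content, the clusters together deviated by 0.00181 ± 0.0229 (SE 0.00661, 5 of 12 columns above, adjusted p = 0.904, exact sign-flip permutation test). This comparison was chosen after the data were seen. In 19p12 the deviation was -0.00177 ± 0.0324 (SE 0.00935), in 19q13.12 it was 0.00686 ± 0.0475 (SE 0.0137), in 19q13.31 it was 0.0128 ± 0.0444 (SE 0.0128), and in 19q13.41-43 it was 0.00103 ± 0.0259 (SE 0.00748). None of these 5 tests had an adjusted p under 0.904 (exact permutation test). The gap of the clusters was thus present in the deposited values and was not detectable per input read.

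**Figure D2:**
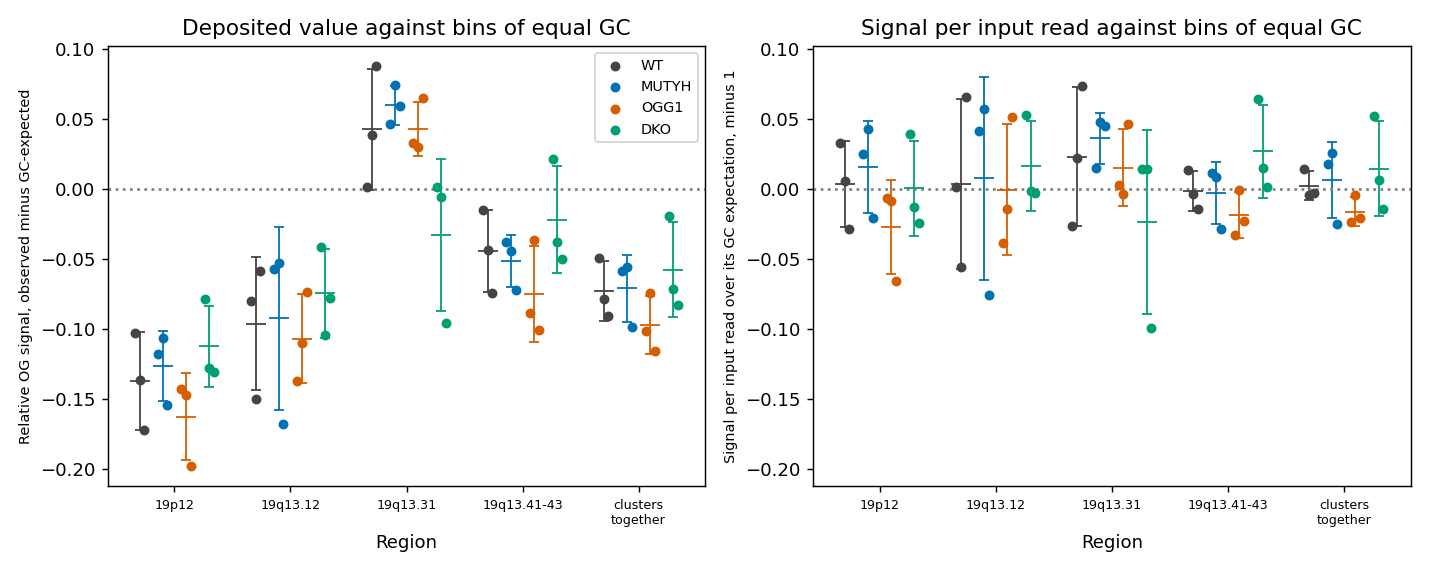
Left, relative OG signal of each cluster minus the value expected from bins of equal GC content; right, deposited signal per input read over the same expectation, minus 1 (y axes linear, same range; x axes, regions). Points are the 3 columns of a genotype and bars are mean ± SD; at the left all 12 columns of 19p12 and 19q13.12 are below 0, at the right columns of each cluster lie on both sides of 0.

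The 4 genotypes did not differ detectably in the signal of the clusters. For the clusters together, WT had a mean of 1.11 ± 0.0323 (SD, n = 3), MUTYH-/ of 1.11 ± 0.0802, OGG1-/ of 1.13 ± 0.0533 and DKO of 1.13 ± 0.0469. The largest difference between genotype means was 0.0217, less than the mean SD within a genotype of 0.0532 (exact permutation test over 15400 groupings, p = 0.932). MUTYH-/ minus WT was 0.00727 (SE 0.0499, p = 0.9, exact two-sided permutation test), OGG1-/ minus WT was 0.0217 (SE 0.0360, p = 0.5, exact) and DKO minus WT was 0.0214 (SE 0.0329, p = 0.6, exact). With 3 columns against 3, no p below 0.1 can be reached. The signs of these 3 differences changed with the scaling or with a column left out.

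By cluster, the genotype means spread over 0.0553 in 19p12, from OGG1-/ at 0.876 ± 0.0317 to DKO at 0.932 ± 0.0297 (exact permutation test, n = 3, adjusted p = 0.677 over 5 tests). They spread over 0.106 in 19q13.31, from DKO at 1.13 ± 0.0778 to OGG1-/ at 1.23 ± 0.0296 (adjusted p = 0.666, exact). In 19q13.12 and 19q13.41-43 the spread was 0.0386 and 0.0495, less than the mean SD within genotypes of 0.0479 and 0.0888 (adjusted p = 0.932 in both, exact). Relative to bins of equal GC content, 19q13.31 had the smallest p of the 5 regions (p = 0.0345, adjusted p = 0.173, exact permutation test), with DKO lowest at -0.0331 ± 0.0542 and MUTYH-/ highest at 0.0598 ± 0.0138. The DKO columns were 0.00174, -0.00539 and -0.0955, and without the third the DKO mean was -0.00183. Relative input reads in 19q13.31 were 1.04 ± 0.0160 in DKO and 1.07 ± 0.0151 in MUTYH-/. By the OG to input read ratio relative to bins of equal GC content, the genotype means of 19q13.31 spread over 0.0175 (adjusted p = 0.611, exact permutation test). This ratio was chosen after the data were seen and has a smaller scale by construction. The part of the input difference in the result was not tested further.

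In windows of 100 kb, the signal was uneven along the clusters. The 134 windows with at least 50 bins had a mean relative signal from 0.709 to 1.85 (median 1.06). The SD between windows was 0.255, and the average SD of a window between the 12 columns was 0.160. In 19p12 these were 0.0921 and 0.136. The SD between windows is taken over means of 12 columns and the other over single columns, so the 2 cannot be compared directly. In 19p12, 39 of 43 windows were below the average bin, against 10 of 15 in 19q13.12, 3 of 11 in 19q13.31 and 8 of 65 in 19q13.41-43. As a description over windows, which share libraries and differ in depth, the signal followed GC content with r = 0.909 and relative input reads with r = 0.864.
The lowest windows were chr19:22100001-22200000, which holds ZNF676 (0.709 ± 0.147, SD over 12 columns, 38.7 % GC), and chr19:23600001-23700000, which holds ZNF675 (0.714 ± 0.154, 39.5 % GC). The highest was chr19:58400001-58500000 near the end of the long arm (1.85 ± 0.185, 51.4 % GC), with ZNF584, ZNF132, ZNF324B, ZNF324, ZNF446 and the bile acid ligase gene SLC27A5. Next to it in rank was chr19:55300001-55400000 (1.81 ± 0.290, 56.7 % GC), which has no zinc finger gene and holds the cytokine gene IL11 and the ribosomal protein gene RPL28. The lowest and highest windows did not overlap in any column: ZNF676 and ZNF675 windows reached at most 1.05 and 0.862, and the highest window was at least 1.61. These 4 windows were chosen after their values were seen.

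**Figure D3:**
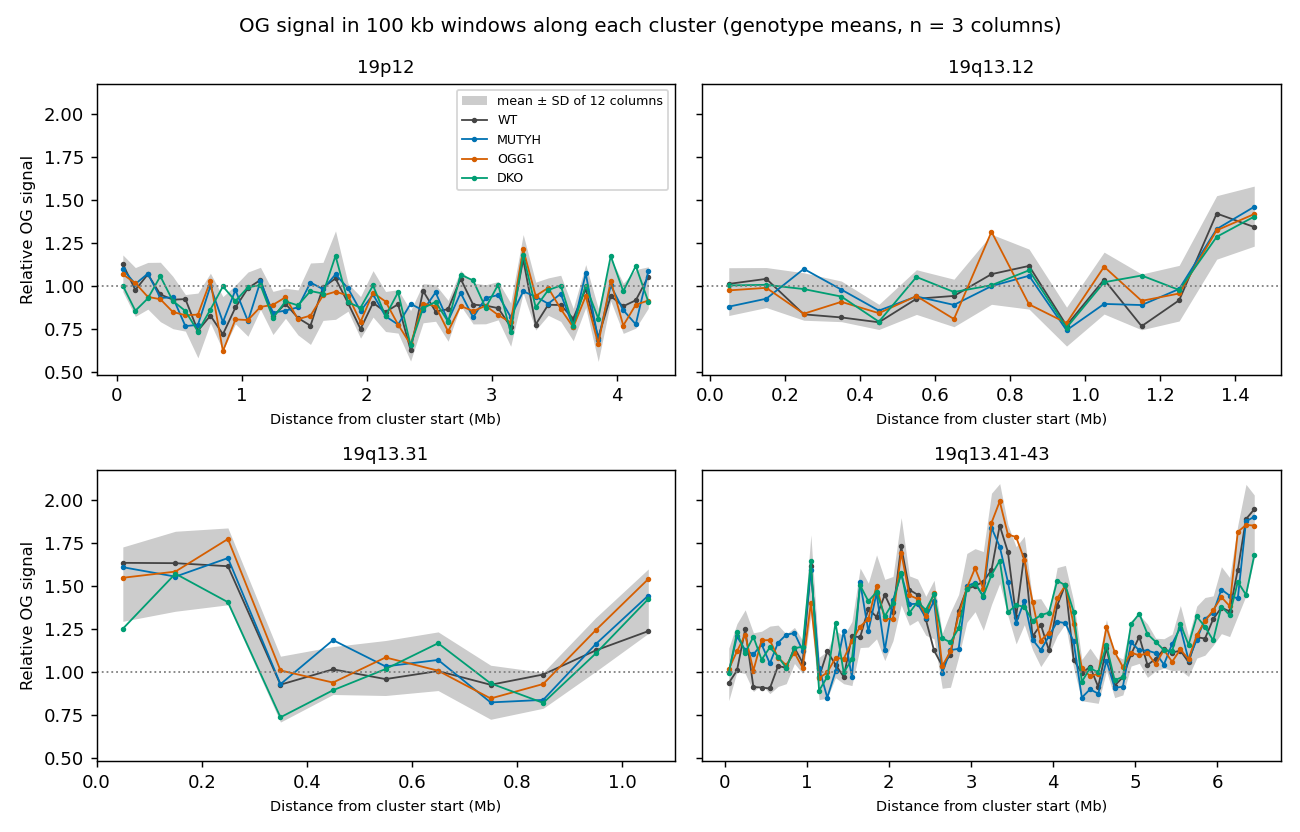
Relative OG signal in windows of 100 kb (y axis, linear, mean of all bins = 1) against the distance of the window centre from the start of its cluster in Mb (x axis), 1 panel per cluster. Lines are genotype means (n = 3 columns) and the grey band is mean ± SD of 12 columns; the mean over columns runs from 0.709 in a window of 19p12 to 1.85 in a window of 19q13.41-43.

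No window of the clusters passed the test in a knockout. With limma and Benjamini-Hochberg adjustment over 28128 windows, 0 of the 134 cluster windows had an adjusted p under 0.05 in MUTYH-/, OGG1-/ or DKO (all windows 0 %, 0 % and 0.0107 %). An unadjusted p under 0.05 was found for 8 windows with MUTYH-/, 5 with OGG1-/ and 8 with DKO, where all windows gave 3.37 %, 4.63 % and 4.4 %. The median log2 fold change of the cluster windows was 0.01 in MUTYH-/ and OGG1-/ and 0.02 in DKO, and ranged from -0.38 to 0.44 over the 3 knockouts. In data simulated for OGG1-/ against WT with the same spread in all windows, 99 % of 200 windows among 28128 with a log2 change of 1 were called. The changes measured in the cluster windows were smaller than this. Changes of their size were not simulated and could have been missed.
The window with the smallest p in MUTYH-/ was chr19:53900001-54000000, with the calcium channel subunit genes CACNG7 and CACNG8. It was 1.46, 1.52 and 1.37 in WT and 1.47, 1.02 and 0.899 in MUTYH-/ (log2 fold change -0.36, SE 0.16, limma adjusted p = 1.00). The groups overlapped in 1 column. In OGG1-/ it was chr19:55500001-55600000, with SSC5D, SBK2, SBK3, ZNF579 and FIZ1, at 1.48, 1.15 and 1.35 in WT and 1.68, 1.74 and 1.94 in OGG1-/ (log2 fold change 0.41, SE 0.15, limma adjusted p = 0.986). These groups did not overlap. OGG1-/ lay above WT without overlap in 5.57 % of all windows and 2.99 % of the cluster windows. In DKO it was chr19:43500001-43600000, with XRCC1, whose product is a scaffold of single-strand break repair, and ETHE1, ZNF575, ZNF576, PINLYP and IRGQ. It was 1.66, 1.50 and 1.75 in WT and 1.07, 1.33 and 1.37 in DKO (log2 fold change -0.36, SE 0.14, limma adjusted p = 1.00), without overlap. The mean input reads of these windows were 0.961, 0.914 and 0.944 times those of WT, and their part in the values was not tested. DKO lay below WT without overlap in 4.38 % of all windows and 2.99 % of the cluster windows.
A window of the leukocyte receptor complex, chr19:54500001-54600000 with LAIR2, LILRA2 and LILRA1, was named after its values were seen. It was 1.21, 1.10 and 1.08 in WT, 1.43, 1.50 and 1.32 in MUTYH-/, 1.30, 1.48 and 1.61 in OGG1-/ and 1.39, 1.41 and 1.56 in DKO. All 9 knockout columns were above the 3 WT columns, which the 3 comparisons share. Taken singly, MUTYH-/, OGG1-/ and DKO lay above WT without overlap in 3.84 %, 5.57 % and 4.92 % of all windows. The shares of the cluster windows were 5.97 %, 2.99 % and 7.46 %. The limma adjusted p was 1.00, 0.986 and 1.00, so the difference did not pass the test in any knockout.

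Over whole gene bodies, the zinc finger genes of the clusters were close to the average bin. Of the 189, 185 had at least 5 bins, and their median relative signal was 1.06, from 0.615 to 2.02, with 78 genes (42.2 %) below 1. The 127 other protein-coding genes of the clusters with at least 5 bins had a median of 1.41, and 7 of them (5.51 %) were below 1. The median GC content was 43.3 % for the zinc finger genes and 50.3 % for the others. Over all 17294 protein-coding genes the median was 1.25, and over 367 zinc finger genes elsewhere in the genome it was 1.13. Among the clusters the median of the zinc finger genes was 0.856 in 19p12, 0.915 in 19q13.12, 1.01 in 19q13.31 and 1.19 in 19q13.41-43. Across the 185 genes, which are not independent replicates, the signal followed GC content with r = 0.865.

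**Figure D4:**
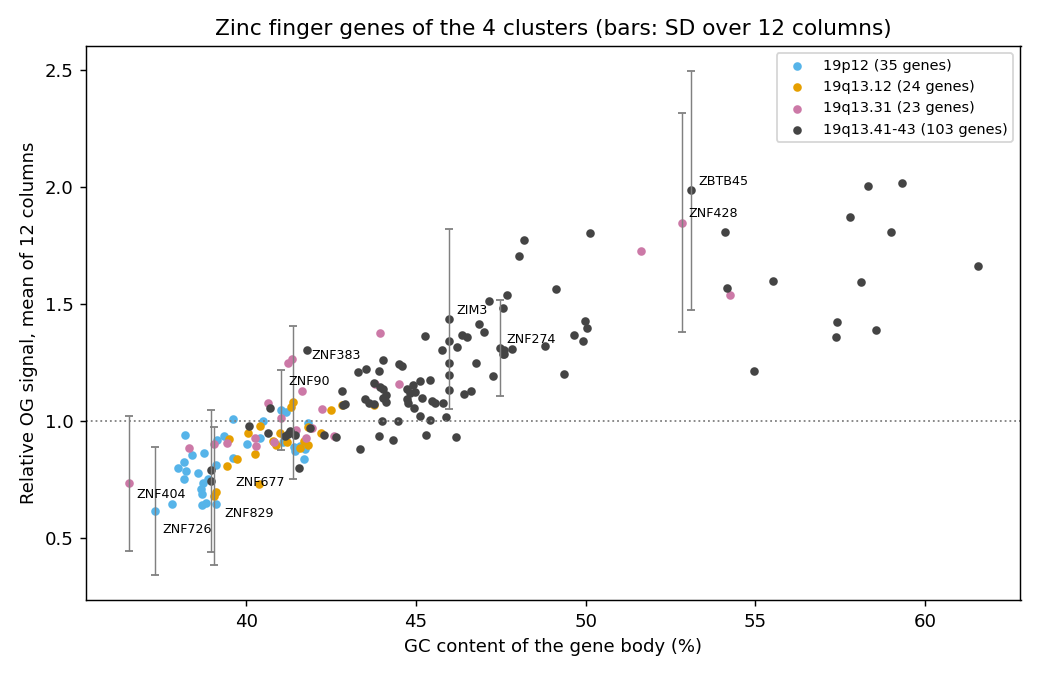
Mean relative OG signal over 12 columns (y axis, linear) of 185 zinc finger gene bodies with at least 5 bins against their GC content in % (x axis), coloured by cluster. Bars are the SD over 12 columns for the named genes; genes of 19p12 sit at the lower left (median 0.856) and the highest genes are those of 19q13.41-43 and 19q13.31 above 50 % GC.

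The listed genes are given by cluster. ZNF91 (ENSG00000167232.14, chr19:23304991-23395471, minus strand), which silences SVA elements, had 0.971, 0.747 and 0.935 in WT, 1.25, 0.896 and 0.782 in MUTYH-/, 0.989, 0.727 and 0.704 in OGG1-/ and 1.23, 1.01 and 0.887 in DKO. The genotypes overlapped, and the mean was 0.927 ± 0.179 (SD over 12 columns). ZNF93, which binds LINE-1 elements, had a mean of 0.991 ± 0.210. ZNF208, which has the most copies of the linker run, ranged from 0.605 to 0.951 over 12 columns, with a median of 0.738, and was below 1 in all of them. ZNF43, of the same cluster, ranged from 0.449 to 1.24 with a median of 0.875.
In 19q13.12, ZNF382 had a mean of 0.974 ± 0.275, ZNF568, a gene of placental development in mice, 0.862 ± 0.0971, and ZNF420, also called APAK for its link to p53, 0.897 ± 0.118. In 19q13.31, ZNF45 had 1.25 ± 0.328, ZNF180 1.16 ± 0.262 and ZNF224 0.927 ± 0.315. XRCC1, which lies in that stretch and is no zinc finger gene, was higher, with 1.55 ± 0.306 at 50.9 % GC. Its values were 1.63, 1.29 and 1.88 in WT, 2.01, 1.84 and 1.65 in MUTYH-/, 1.43, 1.88 and 1.24 in OGG1-/ and 1.06, 1.28 and 1.44 in DKO, with overlap of all genotypes but DKO and MUTYH-/.
In 19q13.41-43, the imprinted gene PEG3 had 1.02 ± 0.201 and ZIM3 1.44 ± 0.384. ZNF274, which binds the 3′ ends of zinc finger genes and recruits the methyltransferase SETDB1, had 1.31 ± 0.204, and was 1.56, 1.09 and 1.59 in WT, 1.28, 1.24 and 0.932 in MUTYH-/, 1.41, 1.51 and 1.41 in OGG1-/ and 1.35, 1.07 and 1.32 in DKO. ZNF331 had 1.00 ± 0.202, ZNF83 1.08 ± 0.184, ZNF154 1.34 ± 0.251, ZNF671 1.34 ± 0.735 over only 8 bins, and ZNF587 1.36 ± 0.443. The gene of the co-repressor TRIM28, at the end of this stretch, was not analysed here.

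The genes at the ends of the range in each cluster, among zinc finger genes with at least 10 bins, were chosen by level and are given as a description. ZNF726 (0.615 ± 0.273) and ZNF90 (1.05 ± 0.170) were the lowest and highest of 19p12, and ZNF829 (0.681 ± 0.294) and ZNF383 (1.08 ± 0.326) those of 19q13.12. ZNF404 (0.735 ± 0.287) and ZNF428 (1.85 ± 0.467) were those of 19q13.31, and ZNF677 (0.746 ± 0.303) and ZBTB45 (1.98 ± 0.509) those of 19q13.41-43. The low genes had 36.5 to 39.0 % GC and the high genes of the last 2 clusters 52.8 and 53.1 %. Relative input reads were lower in the low genes, 0.852 in ZNF726 and 0.886 in ZNF829, than in ZNF428 (1.11) and ZBTB45 (1.31).

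No zinc finger gene passed the test against WT. With limma and adjustment over 17294 genes, 0 of the 185 were called in each knockout (all genes 0 % in each). An unadjusted p under 0.05 was found for 10 genes with MUTYH-/, 4 with OGG1-/ and 13 with DKO, with 4.28 %, 4.45 % and 5.3 % of all genes. In data simulated for OGG1-/ against WT on 17294 genes, 70.5 % of 200 genes with a log2 change of 1 were called. The simulation gave all genes the same spread, while the spread of measured genes varied. Changes of this size or larger in a gene could therefore have been missed, as well as smaller ones. ZNF829 was at 0.370, 0.288 and 0.378 in WT, 1.23, 0.640 and 0.493 in MUTYH-/, 0.557, 0.977 and 0.888 in OGG1-/ and 0.930, 0.879 and 0.543 in DKO. The 3 WT columns were below all 9 knockout columns, and the log2 fold changes were 0.89, 0.98 and 0.94 (SE 0.31; limma adjusted p = 0.999, 0.997 and 0.943). ZNF404 was 0.814, 1.15 and 0.857 in WT and 0.473, 0.444 and 0.205 in DKO (log2 fold change -1.15, SE 0.30, limma adjusted p = 0.840), without overlap. ZNF90 was 1.22, 1.05 and 1.26 in WT and 0.871, 0.840 and 0.812 in OGG1-/ (log2 fold change -0.43, SE 0.13, limma adjusted p = 0.997), also without overlap. ZNF829, ZNF404 and ZNF90 are among the genes chosen by level above, so their own values helped to choose them. How many of all genes separate in this way was not counted.

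The stretches hold other gene families, which had more signal than the zinc finger genes. Bins with their centre in a zinc finger gene (5701 bins) had a relative signal of 1.02 ± 0.0324 (SD over 12 columns), and bins in protein-coding genes outside the named families (2581 bins) 1.31 ± 0.106, the latter higher in each column. The 19 leukocyte receptor genes (LILR, KIR and LAIR), which regulate immune cells, had 1.36 ± 0.108 in 246 bins, and the 9 NLRP genes, of inflammasome and oocyte proteins, 1.34 ± 0.130 in 377 bins. The placental microRNA cluster C19MC (chr19:53666679-53762430, 42 genes) had 1.29 ± 0.213 in 95 bins, from 0.930 to 1.67. The 3 vomeronasal receptor genes had 1.13 ± 0.293 in only 7 bins.
Against bins of equal GC content, zinc finger genes were below expectation in 12 of 12 columns (-0.0977 ± 0.0252) and NLRP genes below in 2 of 12 (0.0438 ± 0.100). Protein-coding genes outside the named families were below in 10 of 12 columns (-0.0287 ± 0.0343). The leukocyte receptor genes had -0.0583 ± 0.101 and C19MC -0.0899 ± 0.186, each below in 8 of 12 columns. Input reads were 0.960 ± 0.0107 times the average bin in the zinc finger genes, 1.08 ± 0.0279 in the leukocyte receptor genes, 1.06 ± 0.0242 in the NLRP genes and 1.09 ± 0.0497 in C19MC. These group values are descriptions without a test.

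Within the clusters, promoters had the most signal. Bins were assigned to promoter (1000 bp upstream to 100 bp downstream of the start, 528 bins, 52.3 % GC), zinc finger exon (400 bins overlapping one, 42.7 %), other genic (7412 bins, 44.4 %) or intergenic (5033 bins, 43.5 %). Promoters had 1.37, 1.43 and 1.45 in WT, 1.46, 1.16 and 1.27 in MUTYH-/, 1.45, 1.49 and 1.37 in OGG1-/, and 0.986, 1.49 and 1.29 in DKO. Zinc finger exons had 1.07, 1.02 and 1.14 in WT, 1.12, 0.928 and 1.06 in MUTYH-/, 1.16, 1.06 and 1.08 in OGG1-/, and 1.04, 0.950 and 0.994 in DKO. The 2 parts overlapped only through the first DKO column, in which promoters were the lowest of the 4 parts.
Promoters exceeded zinc finger exons by 0.301 ± 0.145, other genic bins by 0.226 ± 0.140 and intergenic bins by 0.263 ± 0.157 (11 of 12 columns in each, adjusted p = 0.00293 over 6 pairs, exact sign-flip permutation test). The difference of zinc finger exons and other genic bins was -0.0746 ± 0.0907 (9 of 12 columns below, adjusted p = 0.0176, exact permutation test). It was -0.0888 (adjusted p = 0.0563, exact permutation test) without the first column of each genotype and -0.0319 (adjusted p = 0.234, exact permutation test) without the second. Other genic bins exceeded intergenic bins by 0.0366 ± 0.0249 (11 of 12 columns, adjusted p = 0.00366, exact permutation test), and by 0.00425 in the OG to input read ratio, which did not pass the test (adjusted p = 0.0532, exact permutation test). Zinc finger exons and intergenic bins differed by -0.0381 ± 0.0868 (adjusted p = 0.157, exact permutation test). By the read ratio, promoters exceeded zinc finger exons, other genic and intergenic bins by 0.101, 0.0719 and 0.0761 (adjusted p = 0.00195 in each, exact permutation test). On that scale zinc finger exons differed from other genic bins by -0.0294 (adjusted p = 0.00513) and from intergenic bins by -0.0252 (adjusted p = 0.00879, exact permutation test in both).
Subtracting the value expected from GC content turned the order over. Zinc finger exons were then 0.0130 ± 0.0653 from expectation, while promoters were at -0.112 ± 0.0651, other genic bins at -0.0718 ± 0.0302 and intergenic bins at -0.0818 ± 0.0323. Zinc finger exons exceeded other genic bins by 0.0848 ± 0.0805 (10 of 12 columns, adjusted p = 0.0107), and intergenic bins by 0.0948 ± 0.0754 (10 of 12 columns, adjusted p = 0.00586), in the same exact permutation test. The difference of promoters and zinc finger exons was -0.125 ± 0.0931 (11 of 12 columns below, adjusted p = 0.00586, exact permutation test). Promoters then did not pass the test against other genic bins (-0.0400 ± 0.0820, adjusted p = 0.138, exact permutation test) or intergenic bins (-0.0300 ± 0.0835, adjusted p = 0.245, exact permutation test), and neither did other genic against intergenic bins (0.01004 ± 0.0180, adjusted p = 0.119, exact permutation test). Relative input reads were 1.02 ± 0.0244 in zinc finger exons, 0.966 ± 0.0393 in promoters, 0.991 ± 0.0150 in other genic and 0.973 ± 0.0107 in intergenic bins. Their part in the result was not tested.

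**Figure D5:**
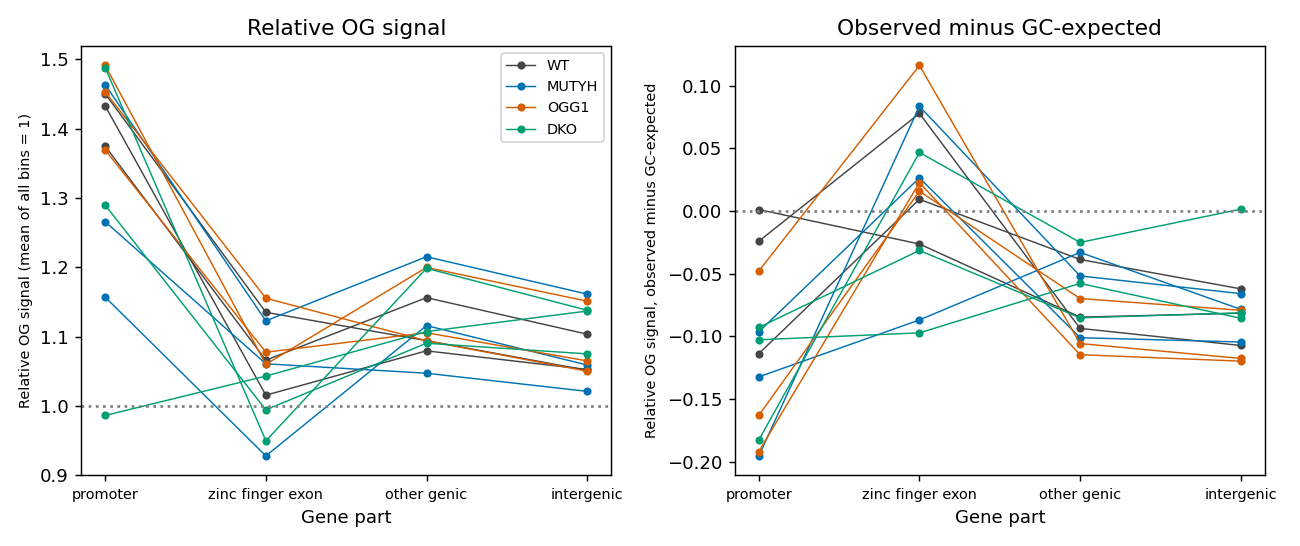
Relative OG signal (left y axis) and relative OG signal minus the value expected from bins of equal GC content (right y axis) in 4 gene parts of the clusters (x axis). Lines join the values of 1 column and are coloured by genotype; at the left 11 of 12 columns are highest at promoters, at the right zinc finger exons lie above promoters in 11 of 12.

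Single promoters varied around this average. For 187 zinc finger genes with a promoter bin, the mean relative signal ranged from 0.282 to 2.89 with a median of 1.24. The promoter sequences of 158 of them were in the RefSeq table (GRCh38.p14), and 20.3 % held a G4 motif, against 25 % of all 35116 promoters of that table. The median number of CpG was 20, against 14 in all promoters. The promoters of ZNF93 and ZNF83, the highest and the lowest among the listed genes with a sequence, are shown as examples chosen after their values were seen, with CpG in capitals.
ZNF93 promoter, chr19:19900696-19900995, GRCh38, plus strand: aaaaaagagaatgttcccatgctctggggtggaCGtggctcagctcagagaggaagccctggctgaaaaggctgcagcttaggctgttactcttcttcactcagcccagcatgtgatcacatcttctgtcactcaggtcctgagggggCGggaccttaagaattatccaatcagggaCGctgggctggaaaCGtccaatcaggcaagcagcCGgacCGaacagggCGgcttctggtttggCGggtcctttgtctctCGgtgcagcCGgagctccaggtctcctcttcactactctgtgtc
ZNF83 promoter, chr19:52690447-52690746, GRCh38, minus strand: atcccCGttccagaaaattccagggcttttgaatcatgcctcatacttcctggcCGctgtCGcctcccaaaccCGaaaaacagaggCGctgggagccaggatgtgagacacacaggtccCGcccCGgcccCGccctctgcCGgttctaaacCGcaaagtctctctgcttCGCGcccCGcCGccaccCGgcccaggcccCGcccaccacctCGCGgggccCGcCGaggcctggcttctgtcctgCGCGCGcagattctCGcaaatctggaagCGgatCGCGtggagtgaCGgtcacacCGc
The ZNF93 promoter has 10 CpG, 56 % GC and no G4 motif, and its bin ranged from 0.511 to 5.35 over 12 columns, with a median of 2.09. The ZNF83 promoter has 29 CpG, 65.7 % GC and 2 G4 motifs on the strand opposite to the gene, and its bin ranged from -2.26 to 1.58, with a median of 0.582. The ranges overlapped. Each rests on 1 bin, with input reads at 0.897 and 0.680 of the average bin, and no test was made.

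Bins with high signal were sparse in 19p12 and more frequent in 19q13.41-43. The authors defined OG-enriched bins (OG-EBs) on the log2 ratio of OG to input, in both technical replicates. Here the deposited value was ranked instead, so the counts are not comparable with theirs. A bin counted as OG-EB in a genotype when its value reached the top 5 % of all bins in 2 or 3 of that genotype's columns. The clusters held 200 for WT, 176 for MUTYH-/, 201 for OGG1-/ and 202 for DKO, or 1.50 %, 1.32 %, 1.50 % and 1.51 % of their bins. All bins gave 1.34 %, 1.33 %, 1.54 % and 1.3 % in the same order, and the rest of chromosome 19 gave 2.89 to 4.85 %. At this threshold the shares of the clusters were close to those of all bins. With the 99th percentile as threshold they were lower in each genotype, from 0.0748 % in WT (all bins 0.145 %) to 0.127 % in OGG1-/ (all bins 0.182 %). With 3 of 3 columns required they were 0.0374 % in WT (all bins 0.102 %), 0.0598 % in MUTYH-/ (all bins 0.0995 %), 0.0823 % in OGG1-/ (all bins 0.140 %) and 0.0972 % in DKO (all bins 0.0879 %). Ranked on the value minus the GC expectation, they were 0.763 to 0.867 %, against 1.04 to 1.12 % of all bins. The clusters differed among themselves. 19p12 had 12 to 23 OG-EBs per genotype (0.279 to 0.535 %), 19q13.12 10 to 13 (0.685 to 0.891 %), 19q13.31 16 to 32 (1.49 to 2.97 %) and 19q13.41-43 133 to 153 (2.03 to 2.34 %).
Few were shared between genotypes. Of 724 bins enriched in at least 1 genotype (5.41 % of the cluster bins, all bins 4.77 %), 49 were enriched in at least 2, which is 0.366 % of the cluster bins and compares with 0.577 % of all bins. There were 6 in 3 genotypes (0.0449 %, all bins 0.135 %) and 0 in every genotype (all bins 0.0313 %). The 724 bins had 49.99 % GC and 19.9 CpG, and 18.5 % held a G4 motif, against 43.99 %, 14.3 and 11.6 % in the other cluster bins. OG-EBs made up 9.85 % of the promoter bins, 4.50 % of the zinc finger exon bins, 5.84 % of the other genic bins and 4.39 % of the intergenic bins.

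All 6 bins enriched in 3 genotypes lay in 19q13.41-43. They were named after their values were seen, and their values are the ones that chose them. The bin at chr19:53016001-53017000 touches the end of the retroviral envelope gene ERVV-1 by less than 200 bp and was counted as intergenic, and its mean value was 35.7 ± 15.3 OG reads over 12 columns. Bins at chr19:54223001-54224000 and chr19:54573001-54574000 are promoter bins next to RPS9 with LILRB3 and to LILRA2, with 38.9 ± 23.8 and 31.4 ± 11.3. The bins at chr19:55250001-55251000 in PPP6R1 and chr19:55772001-55773000 in RFPL4AL1 had 27.2 ± 14.9 and 34.6 ± 23.5. In RFPL4AL1 the WT columns were -1.18, 11.05 and 16.4, and the lowest of the 9 knockout columns was 13.7, so the groups overlapped in 1 column.
The bin at chr19:55670001-55671000, in the splicing factor gene U2AF2, was enriched in all genotypes but DKO and had 61.2 % GC and 4 G4 motifs, all on the minus strand. Its values were 8.02, 36.8 and 33.4 in WT, 54.7, 3.93 and 38.7 in MUTYH-/, 39.9, 22.4 and 33.8 in OGG1-/ and 17.2, -0.552 and 2.43 in DKO. The DKO columns were low, and overlapped those of WT and MUTYH-/. Over 12 columns the bin had a mean of 61.7 input reads and 66.4 OG reads. The motifs are shown 5′ to 3′ on the minus strand of GRCh38 because none of the other 5 bins held a motif, with runs of G in capitals.
chr19:55670854-55670882: GGGctcagcaGGGaagccaGGGccaGGGG
chr19:55670515-55670541: GGGtgcaGGGacagcaGGGtgcacGGG
chr19:55670449-55670476: GGGtgcacGGGacagcaGGGtgcacGGG
chr19:55670142-55670165: GGGGctcaGGGGctacGGGGaGGG

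Single bins that differed between a knockout and WT made up shares close to those of all bins. A bin was taken as an OG-differentially enriched region (OG-DER) when its unadjusted limma p did not exceed 0.01 and its log2 fold change was above 0.5 (gain) or below -0.5 (loss), and 13363 of the cluster bins were tested. MUTYH-/ had 35 gains and 34 losses, where the shares of all bins of 0.3 % and 0.322 % apply. OGG1-/ had 47 gains and 31 losses (all bins 0.299 % and 0.256 %), and DKO 37 gains and 42 losses (all bins 0.296 % and 0.312 %). By cluster, gains and losses in OGG1-/ were 10 and 12 in 19p12, 5 and 0 in 19q13.12, 4 and 3 in 19q13.31 and 28 and 16 in 19q13.41-43. In DKO they were 8 and 10, 2 and 6, 2 and 7, and 25 and 19 in the same order. In MUTYH-/ they were 8 and 6, 2 and 3, 5 and 2, and 20 and 23. These calls rest on unadjusted p values and on few columns. Without the first column of each genotype there were 20 gains in MUTYH-/, 29 gains in OGG1-/ and 24 losses in DKO, of 13291 cluster bins. All 2777062 bins then gave 6249, 6454 and 5090 of these, where the full set of columns gave 8414, 8383 and 8752. Without the second there were 18 gains in MUTYH-/, 24 in OGG1-/ and 21 in DKO, of 13267 cluster bins. All 2776154 bins then gave 5264, 5095 and 4638 gains. Without the third there were 17 losses in OGG1-/ among 13277 cluster bins, and 4289 among all 2772752 bins. With Benjamini-Hochberg adjustment over 2802495 bins, limma called 0 cluster bins in each knockout (all bins 0.0005 %, 0.00025 % and 0.00139 % for MUTYH-/, OGG1-/ and DKO), while 543, 526 and 579 had an unadjusted p under 0.05, or 4.06 %, 3.94 % and 4.33 % of those tested (all bins 4.39 %, 4.1 % and 4.31 %). Without the filter on low values, limma called 1 cluster bin as a gain with adjustment in MUTYH-/ and 1 in OGG1-/, and 0 in DKO. All 2835235 bins then gave 83, 63 and 90 gains and 163, 132 and 152 losses in the same order. In data simulated for OGG1-/ against WT on 100000 bins, 0 % of 200 bins with a log2 change of 1 were called with adjustment and 4 % were found as OG-DERs, so most changes of this size in a single bin would be missed there.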

How the data were processed

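OG-seq libraries of 4 genotypes were analysed from the deposited table of 1 kb bins (12 columns, 3 per genotype). Per the labels and the submitters' processing notes, reads were trimmed with cutadapt 2.8 and mapped to GRCh38 with Bowtie2 2.3.5.1. The authors counted reads per bin with bedtools, removed blacklisted bins, scaled input reads by signal extraction scaling (SES) and subtracted them. The deposited value is a score in OG reads after subtraction, and 22.0 to 24.7 % of the bins of a column were below 0. The authors used edgeR for OG-DERs; it was not used here because the values are not raw counts.

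OG reads and input reads of each bin were recovered as whole numbers (tolerance 1e-10) in at least 99.9997 % of the bins of a column, with column totals of 59601849 to 113915679 (OG) and 78621690 to 101608128 (input). Values were divided by the column mean. Expected values came from bins outside the clusters in classes of 1 % GC. Differences between regions, and from the GC expectation, were taken within each column and tested with exact sign-flip permutation tests over all 12 columns. Genotypes were compared with exact permutation tests. Windows (at least 50 bins), gene bodies (at least 5 bins) and bins above 0 in at least 3 columns were tested with limma 3.58.1 (R 4.3.3) on log2(value + 1), with variances moderated by a trend; fold changes are on that scale and understate changes of low features. For bins, values below 0 were set to 0 and columns scaled to the mean total, and the own spread of a bin did not enter its p. The limma tests were checked on simulated data in which all features of a kind had the same spread, so the shares recovered need not hold for single features. A feature had to cover 200 bp of a bin. Genes were from GENCODE (GRCh38), promoters from RefSeq (GRCh38.p14), and Python 3.11.15 was used.

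The genes named were a fixed list of zinc finger and neighbouring genes, the highest and lowest zinc finger gene of each cluster with at least 10 bins, and the window with the smallest p in each knockout. The members and lists were chosen with earlier results of these data known. Alternatives changed the scaling, values below 0, the pseudocount, filters, GC classes, the OG-EB threshold and the columns used. Alternatives per input read were added after the data were seen. The 12 input samples entered through the subtraction alone. RNA-seq and mass spectrometry were not analysed here.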

Additional observations from a re-analysis of the deposited data

How the results depend on the processing

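Among the recomputed values that answer a comparison, 283 kept their direction and their side of the threshold, or stayed within 1.5 times their count. A further 13 fell below the threshold, 2 passed it, 23 changed sign and 32 counts moved further. Part of the 283 was fixed in advance. The spread of genotype means is a range, which is never negative and so cannot change direction. The differences of a knockout from WT could change sign, but with so few columns their exact permutation test cannot pass the threshold. The count of 283 is therefore no measure of how stable the results are. The cause of the changes below was not tested unless the alternative's construction shows it. The OG to input read ratio relative to bins of equal GC content, chosen after the data were seen, kept the difference of the clusters and the rest of chromosome 19 (-0.00697, exact permutation p = 0.0122) and left no other past the test: clusters minus rest of the genome 0.000556, and in the order of the pairs -0.00242, -0.00435 and -0.00166 for 19p12 minus 19q13.12, 19q13.31 and 19q13.41-43, -0.00193 and 0.000760 for 19q13.12 minus 19q13.31 and 19q13.41-43, and 0.00269 for 19q13.31 minus 19q13.41-43. On this scale the gap to bins of equal GC content was 0.000556 for the clusters together, -0.00193 in 19p12, 0.000492 in 19q13.12 and -0.000268 in 19q13.41-43. Per input read it was 0.00181, -0.00177, 0.00686 and 0.00103. A ratio has a smaller scale than the deposited difference by construction. Among gene parts, the read ratio gave -0.0252 for zinc finger exons minus intergenic bins, past the test, and 0.00425 for other genic minus intergenic bins, not past it. The levels of 8 named genes, XRCC1, ZBTB45, ZNF154, ZNF208, ZNF274, ZNF428, ZNF568 and ZNF726, moved by more than 1 SD toward 1 under the read ratio.

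Subtracting the value expected from GC content gave 0.0762 for 19q13.31 minus 19q13.41-43, and in the gene parts -0.125, -0.0400 and -0.0300 for promoters minus zinc finger exons, other genic and intergenic bins, 0.0848 and 0.0948 for zinc finger exons minus other genic and intergenic bins, and 0.01004 for other genic minus intergenic bins. The differences from WT changed sign. MUTYH-/ gave -0.00721 when scaled to the median, -0.00216 with values below 0 set to 0 and -0.00357 when scaled to the rest of chromosome 19. OGG1-/ gave -0.0243 after GC subtraction, -0.0379 when scaled to the rest of chromosome 19 (exact permutation p = 0.1, the smallest 3 columns against 3 allow) and -0.00548 by the read ratio, and DKO gave -0.0245 when scaled to the median. Leaving out the columns of 1 number in turn gave -0.0189 to 0.0344 for MUTYH-/, -0.0212 to 0.0569 for OGG1-/ and -0.0171 to 0.0473 for DKO. It gave -0.102 to -0.0703 for 19q13.31 minus 19q13.41-43, 0.0249 to 0.0317 for the gap of 19q13.31 to bins of equal GC content, and -0.103 to -0.0319 for zinc finger exons minus other genic bins.

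The number of OG-EBs (WT first, then MUTYH-/, OGG1-/ and DKO) was 10, 13, 17 and 15 with a 99th percentile threshold, 5, 8, 11 and 13 with 3 of 3 columns required, and 114, 102, 113 and 116 when ranked on the value minus the GC expectation. The first 2 alternatives are stricter by construction. With the 99th percentile these were 0.0748 to 0.127 % of the cluster bins (all bins 0.136 to 0.182 %). With 3 of 3 columns they were 0.0374 to 0.0972 % (all bins 0.0879 to 0.140 %), and ranked on the value minus the GC expectation 0.763 to 0.867 % (all bins 1.04 to 1.12 %). OG-DERs with a column number left out ranged over 18 to 29 gains in MUTYH-/, 24 to 40 gains and 17 to 30 losses in OGG1-/, and 21 to 33 gains and 24 to 32 losses in DKO. All bins gave 5264 to 6638 gains in MUTYH-/, and 5095 to 6454 gains and 4258 to 5098 losses in OGG1-/. In DKO all bins gave 4638 to 6191 gains and 5090 to 7140 losses. Without the filter there were 67 losses in MUTYH-/, 57 losses in OGG1-/, and 68 gains and 65 losses in DKO (0.501 %, 0.426 %, 0.508 % and 0.486 % of the cluster bins, all bins 0.569 %, 0.493 %, 0.502 % and 0.536 %). Without scaling there were 20 losses in OGG1-/, and 56 gains and 20 losses in DKO, of 13363 cluster bins. All 2802495 bins gave 3627 losses in OGG1-/, and 12514 gains and 4474 losses in DKO. With Benjamini-Hochberg adjustment and the filter, limma gave 0 gains and 0 losses in every knockout, and without the filter 1 gain each in MUTYH-/ and OGG1-/ (all bins 83 and 63 gains). Columns with the same number did not deviate together (mean r -0.0221 over 18 pairs, from -0.413 to 0.340), so the numbers were not taken to pair the columns. With the number as a replicate block, the genotype differences keep their values by construction, and only the p values can change (adjusted exact permutation p from 0.165 to 0.943). With this block 0 windows and 0 genes of the clusters were called. OG-DERs were 36 gains and 35 losses in MUTYH-/, 47 and 30 in OGG1-/, and 37 and 41 in DKO. All bins gave 8343 and 9004, 8317 and 7170, and 8267 and 8710 OG-DERs in the same order. Single bins rest on few reads, which limits what they can show more than the clusters.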
